A study of Mus musculus with 6 samples.

Results

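The cytoskeleton genes described here are 40 mouse genes of 3 classes: 11 tubulins, 17 microtubule-binding proteins and 12 proteins of intermediate filaments. They were listed by name and function, with earlier results of these data known, and so were the further lists given below. A gene was measured when a probe set of the array was annotated to its symbol alone. This held for 38 of the 40, out of 19938 genes measured in all. Tuba1b and Tuba1c, both α-tubulins, appear in the annotation only together with other symbols and have no value of their own. The study compared 3 samples of immortalized neural precursor-like cells labelled knock-out for Lgi1, the gene of a secreted neuronal protein, with 3 labelled Lgi1 wild type. Cells of both genotypes derive from embryonic brain (C57BL/6J, day 13.5) and, per the labels, immortalized cells were kept in RPMI with a little serum. No other allele or agent is named, nor which part of Lgi1 is missing. Total RNA of each sample was measured on 1 Affymetrix Mouse Gene 1.0 ST array. The labels call the samples biological replicates but give neither the number of embryos, clones or lines behind them nor the way the cells were immortalized, so the p-values rest on sample-to-sample spread that may be technical only.

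Microtubules are hollow polymers of α- and β-tubulin dimers, started from rings of γ-tubulin. Microtubule-associated proteins stabilize, bundle or shorten them, and tip-binding proteins follow their growing ends. Intermediate filaments are tougher, unpolarized cables whose protein is typical of the cell type: nestin and vimentin in neural progenitors, neurofilaments in neurons, GFAP in astrocytes, vimentin in mesenchymal cells and keratins in epithelia. As neural progenitors become neurons they are known to lose nestin and gain doublecortin, Tubb3, MAP2, tau and neurofilaments.

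The arrays had median log2 values between 6.36 and 6.41 and no array stood apart, with Pearson correlations of 0.993 to 0.995 within and 0.968 to 0.971 between genotypes over all probe sets. Lgi1 itself did not check the labels, since its mean of 4.77 for wild type and of 4.55 for knock-out lay in the background range (adjusted p = 0.075, and 0.046 with the replicate number as a block). Xist read 4.64 for wild type and 12.44 for knock-out, and the Y-linked Eif2s3y 10.19 and 4.67, so a difference in the sex of the cells cannot be told apart from the genotype in any result given here. Receptor genes of the nose (1194 olfactory and vomeronasal ones), which are silent in most tissues, read 4.89 at their median. Their 95th percentile of 5.68 is called the background level in what follows. Where a genotype's mean lies under it, the size of a difference is limited by it.

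Of the 38 measured genes, 17 changed, 5 upward and 12 downward in knock-out cells, where a change means an adjusted p under 0.05 in limma's moderated test over all genes. Among all 19938 genes 31.6% were called, 14% as higher and 17.6% as lower. The median log2 difference (knock-out minus wild type) was −0.08 over the 38 genes and −0.01 over all genes. Tubulins spanned the narrowest range of differences, and single members of the other classes moved furthest. Called were 4 of 9 tubulins, 10 of 17 microtubule-binding genes and 3 of 12 intermediate filament genes, with medians of −0.22, −0.19 and −0.0080. With the replicate number of the labels as a block, 7, 11 and 3 were called, 21 of the 38 in all. A change of at least 2-fold was found for 4 of the 38, all of them lower (Dclk2, Nes, Map1b and Krt19), while 5.32% of all genes were called with such a change in either direction. Arrays of the genotypes did not overlap in 18 of the 38 genes, and in 42.3% of all genes. No class was tested against other genes, and shares of lists chosen with earlier results of these data known are descriptions only. In 11 of the 38 genes the mean lay under the background level in both genotypes, and 2 of these (Map7 and Stmn3) were called, while among all such genes 6.03% were. The share of 31.6% includes these 8286 dim genes, which were called less often than that. Lists differ in how many dim genes they hold, so a share above or below 31.6%, here or below, does not by itself set a list apart.

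**Figure D1:**
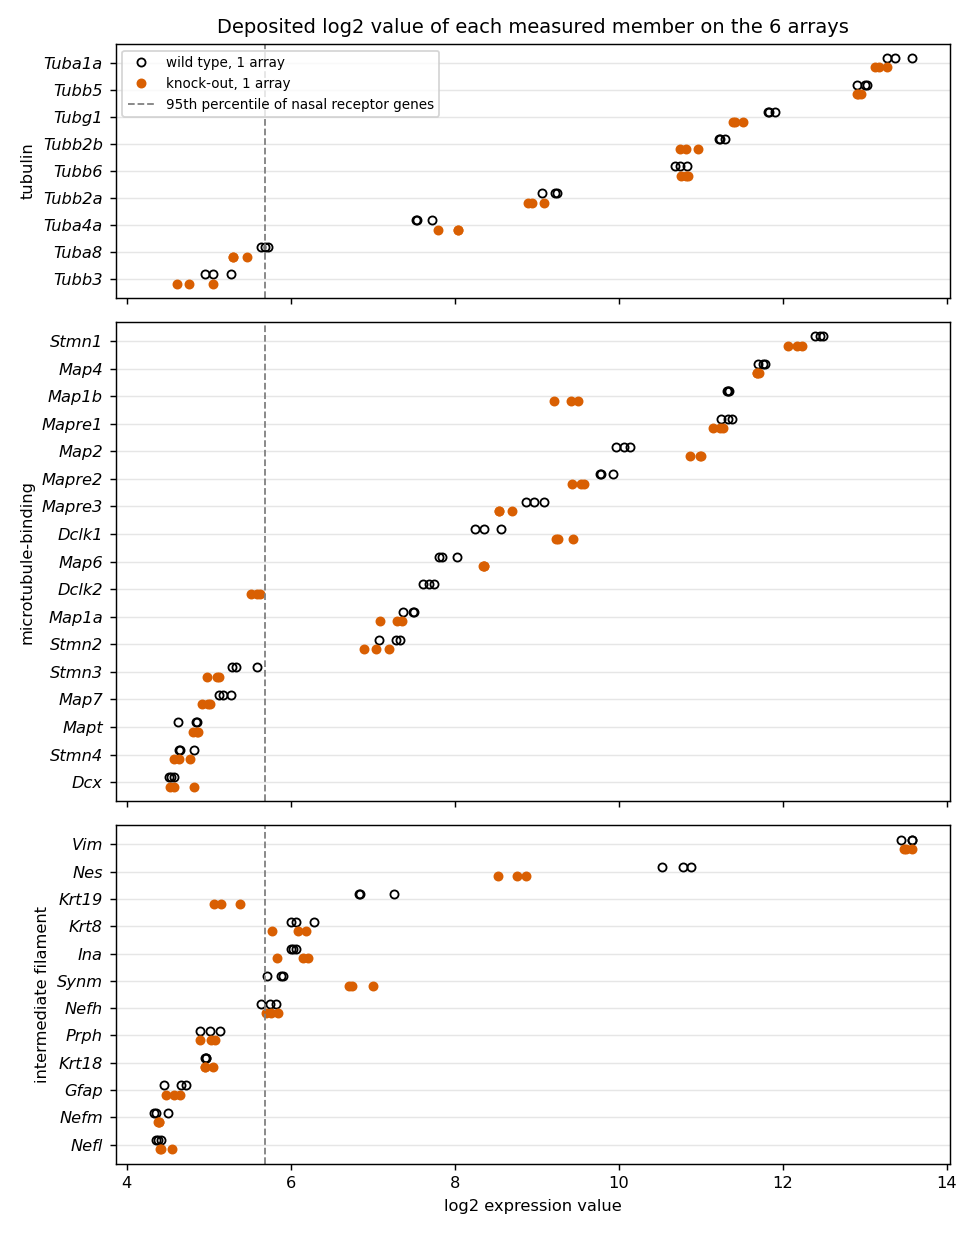
Deposited log2 value (horizontal axis) of each of the 38 measured genes on the 3 wild-type arrays (open circles) and the 3 knock-out arrays (filled circles), in panels by class and ordered by the wild-type mean, with the background level of 5.68 dashed. The genotypes are far apart for Map1b, Dclk2, Nes and Krt19, and 11 genes lie left of the dashed line in both.

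The promoters of the 6 genes with the largest changes among those in the table of start sites are shown. Dclk2, Nes and Map1b fell, and Synm, Dclk1 and Map2 rose. The promoter table from RefSeq (GRCm38.p6) held 27 of the 40 genes, and Krt19 was not among them. Each sequence is the 150 bases just before the annotated start, 5′ to 3′ on the gene's strand, with motif matches in capitals. They lie at chr3:86920885-86921034 (minus strand, Dclk2), chr3:87970943-87971092 (plus, Nes), chr13:99516603-99516752 (minus, Map1b), chr7:67759743-67759892 (minus, Synm), chr3:55242214-55242363 (plus, Dclk1) and chr1:66175179-66175328 (plus, Map2).
Dclk2: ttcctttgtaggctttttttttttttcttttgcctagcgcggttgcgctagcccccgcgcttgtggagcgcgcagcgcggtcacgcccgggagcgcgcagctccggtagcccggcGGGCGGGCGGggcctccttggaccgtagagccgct
Nes: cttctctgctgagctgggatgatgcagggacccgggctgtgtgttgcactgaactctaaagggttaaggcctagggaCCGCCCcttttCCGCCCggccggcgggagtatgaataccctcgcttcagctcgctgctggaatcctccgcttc
Map1b: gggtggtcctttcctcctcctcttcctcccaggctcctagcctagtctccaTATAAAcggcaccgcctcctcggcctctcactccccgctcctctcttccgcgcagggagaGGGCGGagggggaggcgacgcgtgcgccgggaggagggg
Synm: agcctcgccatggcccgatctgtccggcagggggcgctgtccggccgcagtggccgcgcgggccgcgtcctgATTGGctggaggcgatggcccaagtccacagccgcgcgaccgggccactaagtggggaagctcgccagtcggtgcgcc
Dclk1: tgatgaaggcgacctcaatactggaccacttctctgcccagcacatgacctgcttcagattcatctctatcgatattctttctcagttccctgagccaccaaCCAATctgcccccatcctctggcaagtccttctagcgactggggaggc
Map2: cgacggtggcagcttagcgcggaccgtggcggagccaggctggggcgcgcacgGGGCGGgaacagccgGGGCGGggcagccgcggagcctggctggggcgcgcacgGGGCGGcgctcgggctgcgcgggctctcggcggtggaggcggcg

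The motifs searched on both strands were the GC box GGGCGG, the CCAAT box CCAAT, the TATA box TATAAA and CATTGT, a core bound by SOX factors. Both GC boxes of Dclk2 share bases with each other, and no other matches overlap. The GC box occurs in 28.6% of all 32843 windows of this length, and here it was found 2 times each for Dclk2 and Nes, 1 time for Map1b and 3 times for Map2. The CCAAT box, present in 24.5% of all windows, was found for Synm and Dclk1. TATAAA, present in 7.58%, was found for Map1b alone among the 6. CATTGT, present in 6.42%, matched none of the 6. A second annotated start of Dclk1, not shown, held none of the 4 motifs and had a GC content of 43.3%. In the 6 windows shown the GC content ranged from 52.7% for Dclk1 to 82.7% for Map2, beside a median of 54% over all windows. The GC box was thus found before genes that fell (Dclk2, Nes, Map1b) and before one that rose (Map2), and a match describes letters only.

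Tubulins moved by small amounts. Of 9 measured genes 1 rose and 3 fell, by 1.26- to 1.33-fold, a share of 44.4% beside 31.6% of all genes. Tubb2b, a β-tubulin abundant in developing brain, had log2 values of 11.30, 11.23 and 11.23 in the wild-type samples, against 10.75, 10.82 and 10.97 in the knock-out samples. All knock-out arrays were lower than all wild-type arrays, and the log2 difference was −0.41 (SE 0.07, adjusted p = 0.0013). Tubg1, the γ-tubulin that starts new microtubules at the centrosome, read 11.83, 11.90 and 11.82 (wild type) against 11.39, 11.52 and 11.42 (knock-out). It fell by 0.41 on the log2 scale (SE 0.06, adjusted p = 0.00066), again without overlap. Tuba8, an α-tubulin that differs from the common forms, was at 5.64, 5.68 and 5.72 against 5.29, 5.47 and 5.29. The wild-type mean of 5.68 lies at the background level and the knock-out mean of 5.35 under it, and the difference of −0.33 (SE 0.07, adjusted p = 0.0042) separates the genotypes without overlap. Tuba4a, the α-tubulin whose gene does not encode the terminal tyrosine, rose from 7.72, 7.52 and 7.54 to 8.04, 7.79 and 8.04. Its difference was 0.36 (SE 0.09, adjusted p = 0.0092), and it was the only tubulin called as higher.

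The other tubulins did not pass. Tuba1a, the main α-tubulin of young neurons, had means of 13.40 ± 0.157 (wild type) and 13.19 ± 0.0775 (knock-out) (SD, n = 3 each, with a log2 difference of −0.22, adjusted p = 0.087). Tubb2a had a difference of −0.21 (adjusted p = 0.065). Tubb3, the β-tubulin used as a marker of neurons, lay under the background level in both genotypes, at 4.96, 5.27 and 5.05 (wild type) against 4.61, 4.76 and 5.05 (knock-out) (log2 difference −0.29, adjusted p = 0.093). Tubb5, the β-tubulin common to dividing cells, and Tubb6 had intervals that allow only small differences: −0.06 with a 95% interval of −0.19 to 0.08 for Tubb5, and 0.05 with −0.10 to 0.19 for Tubb6. With the block, 7 tubulins were called, 1 higher and 6 lower, the additional ones being Tuba1a (adjusted p = 0.023), Tubb2a (0.025) and Tubb3 (0.042). Single arrays mattered as well. Without wild-type replicate 1 Tuba1a (adjusted p = 0.038) and Tubb2a (0.035) were called, and without knock-out replicate 3 Tubb2a (0.035) and Tubb3 (0.015) were, so that 6 tubulins were called in either case. Other arrays moved the values the opposite way: without wild-type replicate 2 the difference of Tuba1a was −0.13 (adjusted p = 0.28), and without knock-out replicate 1 that of Tubb3 was −0.19 (adjusted p = 0.3). Tuba1a also passed after quantile normalization (adjusted p = 0.021), with arrays centred on their medians (0.041) and with an intensity trend (0.044), and Tubb2a with centred arrays (0.03) and among genes above the median level (0.046).

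Tubulin genes are close copies of one another, and 5 probe sets were annotated to several of them. The 4 that list 2 or 3 of Tuba1a, Tuba1b and Tuba1c read between 13.32 and 13.97 for wild type and between 13.41 and 13.98 for knock-out. Their differences of 0.05 to 0.07 did not pass (limma over 23410 probe sets, adjusted p = 0.48 to 0.69). The probe set annotated to Tubb2a, Tubb2b and a pseudogene went from 9.65 ± 0.0284 to 9.25 ± 0.124 (SD, n = 3 each; log2 difference −0.39, adjusted p = 0.0031). The 4 shared α-tubulin probe sets thus have differences above 0 where the probe set annotated to Tuba1a alone has one below 0, and none of the 5 values passed the test. Signal from near-identical copies cannot be assigned to one of them here, also in the probe sets named after a single tubulin.

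**Figure D2:**
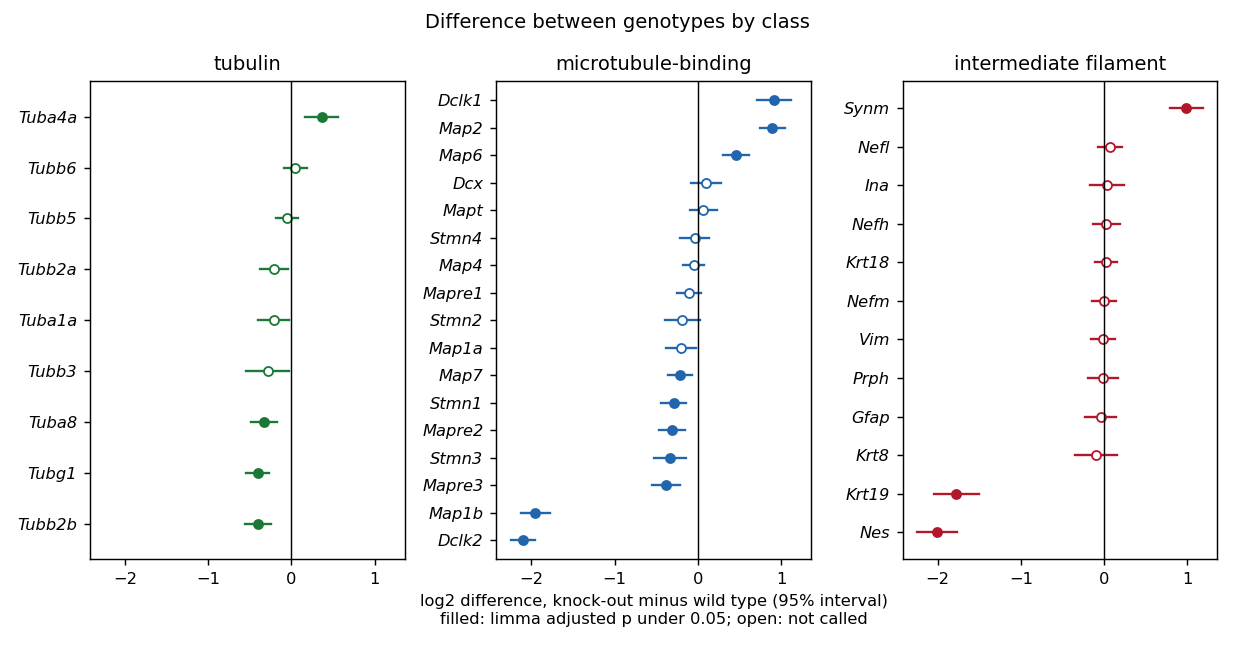
Log2 difference between knock-out and wild-type means (horizontal axis, with its 95% interval from limma) for the 38 genes in panels by class, filled where the adjusted p is under 0.05. Tubulins lie between −0.41 and 0.36, whereas Dclk2, Map1b, Nes and Krt19 lie near −2.

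Of 17 measured microtubule-binding genes 3 rose and 7 fell (58.8%, beside 31.6% of all genes). Dclk2, Map1b, Dclk1, Map2 and Map6 had differences outside the range of the tubulins. The pair of kinases of the doublecortin family, which carry microtubule-binding domains like those of doublecortin, moved oppositely. Dclk2 was at 7.68, 7.74 and 7.61 in the wild-type samples, against 5.62, 5.59 and 5.52 in the knock-out samples. No array of one genotype came within the range of the other, and the log2 difference of −2.10 (SE 0.06, adjusted p = 2.8e-09), a 4.3-fold decrease, ranked 354th in size among all genes. The knock-out mean of 5.57 lay under the background level, which limits this difference. Dclk1 rose from 8.25, 8.36 and 8.57 to 9.44, 9.26 and 9.23, a difference of 0.92 (SE 0.09, adjusted p = 2.9e-05) with no overlap. Doublecortin itself (Dcx), the X-linked member of the family in migrating neurons, stayed under the background level, with values of 4.51, 4.53 and 4.58 (wild type) against 4.58, 4.82 and 4.53 (knock-out) (difference 0.10, adjusted p = 0.44).

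Among the classical microtubule-associated proteins, Map1b, which is known from growing axons, fell and Map2, the protein of dendrites, rose. Map1b read 11.32, 11.33 and 11.34 (wild type) against 9.42, 9.21 and 9.499 (knock-out). The wild-type arrays were nearly identical (SD 0.0129), the knock-out arrays were all lower, and the log2 difference was −1.95 (SE 0.08, adjusted p = 2.5e-08), a 3.87-fold decrease. Map2 read 10.13, 10.06 and 9.97 (wild type) against 11.00, 10.99 and 10.87 (knock-out). It rose by 0.90 (SE 0.07, adjusted p = 4e-06), or 1.86-fold, with no overlap. Map6, which stabilizes microtubules against cold, rose by 0.46 (from 7.89 ± 0.117 to 8.35 ± 0.00527, SD, n = 3 each; adjusted p = 6e-04). Map1a, the relative of Map1b in mature neurons, had a difference of −0.20 that did not pass (adjusted p = 0.097), although its arrays did not overlap. Without knock-out replicate 1 it was −0.12 (adjusted p = 0.31). It passed after quantile normalization (adjusted p = 0.034) and with arrays centred on their medians (adjusted p = 0.04). Map4, the common microtubule-associated protein of non-neuronal cells, had a difference of −0.05 with a 95% interval of −0.18 to 0.08. Tau (Mapt) lay under the background level in both genotypes (4.78 and 4.84, adjusted p = 0.6).

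Map7, a protein that recruits kinesin-1 to microtubules, was called as lower (difference −0.21, adjusted p = 0.032) from means of 5.19 and 4.98, both under the background level. The call was lost without wild-type replicate 1 (adjusted p = 0.066), wild-type replicate 2 (0.11), knock-out replicate 1 (0.11) or knock-out replicate 2 (0.068).

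Of 3 end-binding proteins and 4 stathmins, 4 fell and 3 did not pass, while 17.6% of all genes were called as lower. The end-binding proteins Mapre2 and Mapre3 fell by 0.31 and 0.38 (adjusted p = 0.006 and 0.0031), and Mapre1, the form common to dividing cells, had a difference of −0.11 that did not pass (adjusted p = 0.29). Stathmins bind tubulin dimers and promote the shrinking of microtubules. Stmn1, the stathmin of proliferating cells, went from 12.39, 12.45 and 12.49 to 12.06, 12.17 and 12.23. All 3 knock-out arrays were lower (difference −0.29, SE 0.07, adjusted p = 0.0069). Its second probe set gave the same −0.29 from nearly identical means (12.4448 and 12.1541, beside 12.4450 and 12.1545). Whether both probe sets measure the same sequence was not examined, so the match is no independent support. Stmn3 was called from means under the background level (5.40 and 5.07, difference −0.33, adjusted p = 0.014), and not without knock-out replicate 3 (adjusted p = 0.055). Its second probe set had a difference of −0.16 that did not pass (adjusted p = 0.12 over all probe sets of 1 gene). Stmn2, a stathmin of growing axons, had a difference of −0.19 (adjusted p = 0.18, and 0.035 with the replicate number as a block), which was −0.11 without knock-out replicate 2 (adjusted p = 0.49). Stmn4 lay under the background level in both genotypes, at 4.70 and 4.66.

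Intermediate filament genes split into 3 that moved far and 9 that did not pass, with 25% called beside 31.6% of all genes. Nestin (Nes), the filament protein that marks neural progenitors, was at 10.53, 10.88 and 10.79 in the wild-type samples, against 8.53, 8.76 and 8.87 in the knock-out samples. The genotypes were apart by more than the spread within either of them, with a log2 difference of −2.01 (SE 0.11, adjusted p = 2.4e-07), a 4.02-fold decrease. Both means, 10.73 and 8.72, lay above the background level. Synemin (Synm), which assembles only together with another filament protein such as vimentin or desmin, rose from 5.90, 5.88 and 5.71 to 6.71, 7.004 and 6.74. The difference was 0.99 (SE 0.09, adjusted p = 1.5e-05), with no overlap, from a wild-type mean of 5.83 just above the background level. Vimentin (Vim), the filament of progenitors and mesenchymal cells alike, read 13.44, 13.58 and 13.57 (wild type) against 13.51, 13.48 and 13.57 (knock-out). The arrays overlapped fully, and the difference of −0.01 had a 95% interval of −0.16 to 0.13.

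Of the keratins of simple epithelia, Krt19 alone was called. It fell from 6.84, 7.26 and 6.83 to 5.15, 5.07 and 5.38 (difference −1.77, SE 0.12, adjusted p = 1.7e-06), and its knock-out mean of 5.20 lay under the background level. The arrays did not overlap. Krt8 and Krt18 pair with each other to form filaments. Krt8 read 6.07, 6.28 and 6.00 against 6.19, 5.77 and 6.09, which overlapped (difference −0.10, adjusted p = 0.59), and Krt18 was under the background level in both genotypes (4.96 and 4.99, adjusted p = 0.82). Among epithelial markers, 2 of 6 were lower and none was higher, a share of 33.3% beside 31.6% of all genes. These were E-cadherin (Cdh1, −0.87, from 6.11 to 5.24) and Epcam (−0.22, from 5.03 to 4.81). The Epcam call was lost without wild-type replicate 1 (adjusted p = 0.076) or 3 (0.096) and without knock-out replicate 2 (0.081) or 3 (0.088). Epcam, Cldn7, Esrp1 and Grhl2 lay under the background level in both genotypes, and the mean of the 6 markers was 5.14 to 5.19 on wild-type and 4.99 to 5.03 on knock-out arrays. Their part in the result for Krt19 was not tested.

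Filaments of differentiated neural cells gave little signal in either genotype. The neurofilament chains Nefl (4.38 and 4.46) and Nefm (4.39 and 4.39), peripherin (Prph, 5.01 and 4.997) and the astrocyte filament Gfap (4.61 and 4.57) had wild-type and knock-out means under the background level, and none passed the test (adjusted p = 0.48, 0.97, 0.91 and 0.77). Nefh (5.74 and 5.76) and α-internexin (Ina, 6.03 and 6.07) lay just above it and did not pass either (adjusted p = 0.84 each). Dcx, Tubb3 and tau were likewise under the background level, whereas Map2, Map1b, Map1a, Stmn2 and Tuba1a, also known from neurons, read above it in both genotypes. Of 14 further neuron markers, 13 were measured. Of these 4 were lower and none higher, a share of 30.8% beside 31.6% of all genes, and 10 lay under the background level in both genotypes. These were the vesicle proteins Syn1 (X-linked, −1.61) and Syt1 (−0.92), the RNA-binding protein Celf4 (−0.68) and the growth cone protein Gap43 (−0.50). Both means of Gap43 (5.57 and 5.06) and the knock-out means of Syn1 and Syt1 lay under the background level. The mean of these 13 markers was 5.32 to 5.42 on wild-type and 5.03 to 5.10 on knock-out arrays. Their part in the fall of Map1b and the rise of Map2 was not tested.

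Some markers of the labelled cell type were lower, as nestin was. Of 10 measured neural progenitor markers 5 were lower and 1 higher (60%, beside 31.6% of all genes). Another 4 were not called, and the median log2 difference of the list was −0.27. The falls were led by Sox2 (−5.92, from 11.26 to 5.35), Fabp7 (−3.21), Pax6 (−1.69) and Notch1 (−0.51). The knock-out mean of Sox2, the defining factor of neural progenitors, lay under the background level. The mean over the 10 markers was 7.94 to 7.99 on wild-type and 6.83 to 6.87 on knock-out arrays. Fibroblast markers were higher for 11 of 12 and lower for none, led by Postn (+5.77), Col1a2 (+5.30), Thy1 (+3.72) and Fbln2 (+3.50), with means of 7.51 to 7.56 and 9.99 to 10.05. None of the 12 lay under the background level in both genotypes. Of 6 muscle markers, 2 (33.3%, beside 31.6% of all genes) were higher, Cnn1 (+4.65) and Myl9 (+1.23), and 4 were not called. Myh11 and Myod1 lay under the background level in both genotypes, and the median difference of the 6 was 0.09. Their means were 8.51 to 8.73 on wild-type and 9.57 to 9.70 on knock-out arrays. In such bulk samples fewer cells of a type and less RNA per cell cannot be told apart. The part of these cell types in the changes of Nes and Synm was not tested.

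**Figure D3:**
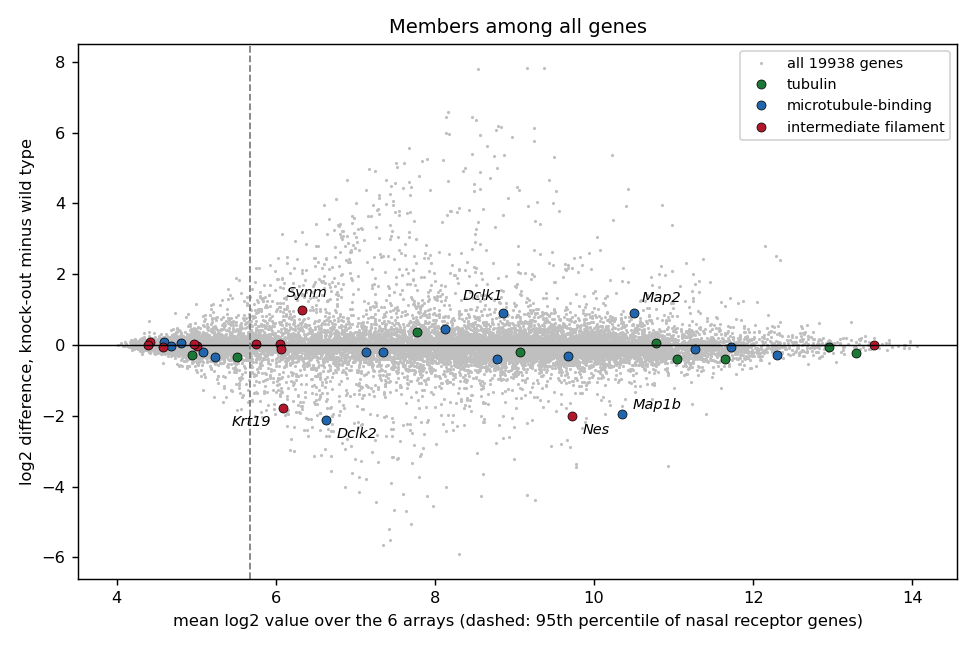
Log2 difference (vertical axis) against the mean log2 value over the 6 arrays (horizontal axis) for all 19938 genes in grey and the 38 cytoskeleton genes in colour by class. The 7 named genes have the largest differences of the 38, and most tubulins lie close to 0 at high values.

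Further genes of the microtubule system moved in both directions. Of 166 measured genes in 9 lists, 26 rose and 44 fell, 42.2% in all beside 31.6% of all genes, with a median difference of −0.06. Under the background level in both genotypes lay 35 of the 166 and 8286 of the 19938, so these 2 shares rest on genes of unlike level. Among the other tubulins, 1 of 8 rose and 1 fell (25%): Tube1, ε-tubulin of centrioles (+0.37), and Tubb4a, a β-tubulin of brain and myelin (−0.68, with both means under the background level). Genes of γ-tubulin complexes and nucleation gave 2 rises and 3 falls of 13 (38.5%). The small γ-tubulin ring subunits Mzt1 (+0.55) and Mzt2 (+0.44) rose, while Cdk5rap2, which tethers the rings to centrosomes (−0.44), and the ring subunit Tubgcp4 (−0.22) fell along with Tubg1. The Tubgcp4 call was lost without wild-type replicate 1 (adjusted p = 0.079) and without knock-out replicate 2 (0.066) or 3 (0.089).

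Enzymes that fold tubulin or modify its tail gave 4 rises and 5 falls of 25, a share of 36% near the 31.6% of all genes. Vash2, a carboxypeptidase that removes the terminal tyrosine of α-tubulin, rose by 1.45, from 7.36 to 8.81 (SE 0.08, adjusted p = 2.4e-07). Hdac6, the X-linked deacetylase of α-tubulin, fell by 0.83, from 9.88 to 9.05, Arl2, a partner of the tubulin folding cofactors, by 0.56 and Ttll12 by 0.31. Proteins of microtubule severing and of the minus and plus ends gave 5 rises and 6 falls of 25 (44%). Slain1, a plus-end protein, had a difference of −2.30 (from 7.29 to 4.997, adjusted p = 4.4e-07), Clip4 of the CAP-Gly family one of −1.72 and Katnal2, related to the severing enzyme katanin, one of −0.81, whereas the neuron navigator Nav3 rose by 0.72. The knock-out mean of Slain1 lay under the background level, which limits its difference.

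Other microtubule-associated proteins gave 6 rises and 7 falls of 21 (61.9%, beside 31.6% of all genes). Mid1, a microtubule-bound ubiquitin ligase (+1.65, from 10.00 to 11.65), and Map7d3, a relative of Map7 (+1.48, from 4.83 to 6.31), rose. Mid1ip1, which binds Mid1 (−1.32), and Mtus1, which binds microtubules (−1.12), fell. As a mean of its probe sets the difference of Mid1ip1 was −0.72. The wild-type mean of Map7d3 and the knock-out mean of Mtus1 lay under the background level. Mid1, Map7d3 and Mid1ip1 are X-linked, and these arrays differ in Xist as given above. Its part in these differences was not tested. Of 13 kinases that act on microtubule-associated proteins, 1 rose and 3 fell (30.8%): Mapk8, also called JNK1 (+0.41), Mapk10 (−0.60), Cdk5, which phosphorylates tau and doublecortin (−0.46), and Mark3 (−0.39). Both means of Mapk10 (5.20 and 4.61) lay under the background level, and its difference was −0.27 as a mean of its probe sets.

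Motors that walk on microtubules mostly fell where they were called, with 4 rises and 14 falls of 32 (56.2%, beside 31.6% of all genes). The dynein intermediate chain Dync1i1 had the largest change, from 5.40, 5.71 and 5.58 to 8.49, 8.63 and 8.30 (difference 2.91, SE 0.10, adjusted p = 7.8e-09). The wild-type mean of 5.56 lay under the background level, which limits this difference, and the arrays did not overlap. Of the kinesin-1 heavy chains, Kif5c fell by 1.77 (from 7.75 to 5.98) and Kif5a rose by 0.95 (from 5.87 to 6.82), and Kif21a, a kinesin that pauses microtubule growth, fell by 0.94. The medians of the motor list and of all genes were −0.16 and −0.01.

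Filament proteins outside the 12, most of them under the background level, gave few calls, and their brighter linkers many. Of 20 other filament proteins and lamins, 15 lay under the background level in both genotypes and 1 (5%, beside 31.6% of all genes) was called. This was Des, the muscle filament desmin (−0.32, from 5.02 to 4.70, both under the background level). Among all genes under this level in both genotypes 6.03% were called. Of 9 measured linkers and chaperones 3 rose and 4 fell (77.8%). None of the 9 lay under the background level in both genotypes, so the 2 lists differ in level. Desmoplakin (Dsp), which anchors keratin filaments to desmosomes, went from 7.90, 7.45 and 7.31 to 5.20, 5.23 and 5.02 (difference −2.40, SE 0.13, adjusted p = 2.9e-07), and its knock-out mean of 5.15 under the background level limits this difference. Periplakin (Ppl), which links filaments to the cell cortex, fell by 1.79 and plakoglobin (Jup) of desmosomes and adherens junctions by 1.47. The small heat shock protein Hspb1, a chaperone that binds filaments, rose from 7.82, 7.51 and 7.59 to 10.57, 10.11 and 10.67 (difference 2.81, SE 0.14, adjusted p = 1.1e-07). For both Dsp and Hspb1 the arrays of the genotypes did not overlap. Desmoplakin, Krt19 and E-cadherin were lower, while Krt8 (−0.10) and Krt18 (+0.02) were not called. Of the 6 epithelial markers, whose values are given with those of Krt19, 4 were not called. A link between these genes was not tested.

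**Figure D4:**
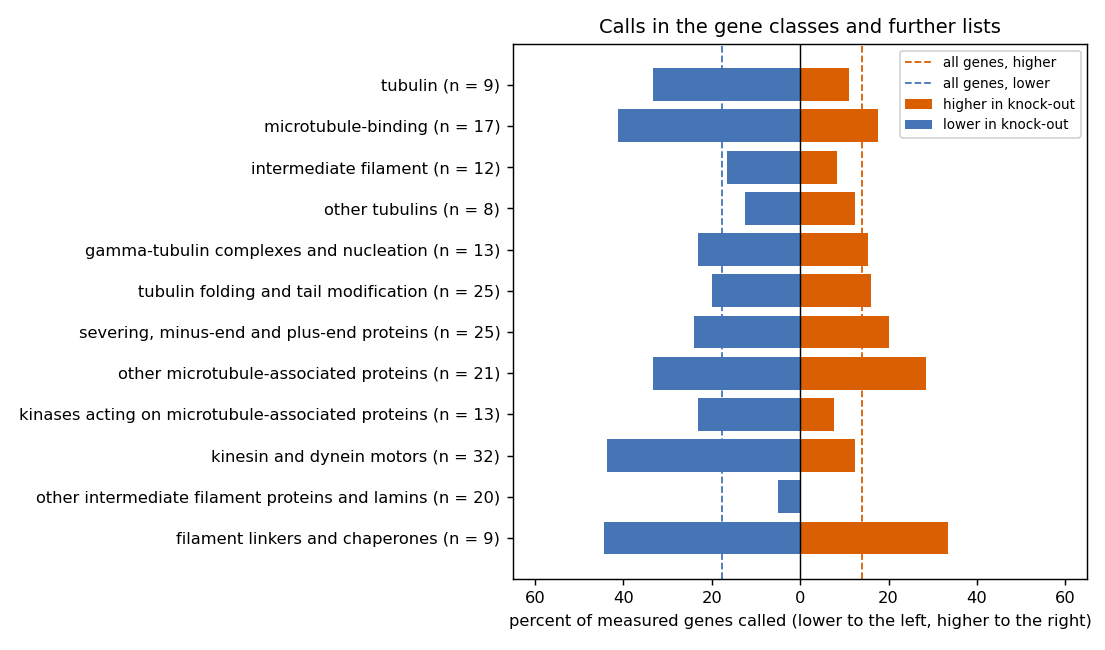
Percent of the measured genes of each class or list called as lower (left) or higher (right) in knock-out cells, with the shares among all genes, 17.6% and 14%, dashed. Motors show 14 falls of 32 and 4 rises, and other filament proteins 1 call among 20. Of these 20, 15 lay under the background level in both genotypes.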

How the data were processed

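Per the labels' protocols, biotinylated cDNA from total RNA of 6 samples, 3 per genotype, was hybridized to Mouse Gene 1.0 ST arrays. The authors deposited log2 values, a scale inferred from their range, with 1 value for each probe set on each array. The submitters' processing notes name Partek. The correction, normalization and summarization of probes, not given in the sources used here, stay unknown. Without detection calls, dim probe sets were judged against receptor genes of the nose.

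Of 35556 probe sets, 21789 had 1 gene symbol in GEO's platform annotation, 1621 several and 12146 none. Of 1-symbol probe sets, 21698 matched the reference gene table by gene ID. The probe set with the highest mean was kept for each of 19938 genes. limma 3.58.1 in R 4.3.3 (lmFit, eBayes) compared the genotypes across all genes, with 4 residual degrees of freedom before moderation and Benjamini-Hochberg adjustment; 7720 genes had an unadjusted p under 0.05.

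The labels do not say whether samples of the same replicate number belong together, and these were treated as possible pairs. Across genes, deviations from genotype means correlated at 0.19 to 0.29 in the 3 same-number pairs and at −0.18 to −0.0047 in the other 6. Deviations cancel within a genotype, so the values of the other 6 are no separate evidence of pairing. The comparison was fitted without a block, and the blocked value stands where it changes a call.

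The genes and lists were chosen with earlier results of these data known. Values on every array are given for genes called at a difference of at least 0.5, or for the 4 largest of a class, and for some others chosen after their values were seen. Up to 4 called genes are named per further list. On simulated data with the 19938 genes of this comparison, 72%, 96%, 100% and 100% of 50 genes each were recovered at log2 differences of 0.5, 1, 2 and 4, and 9 unchanged genes were called. Only these few genes were changed there, whereas 31.6% of all genes were called in the data. The simulated noise was independent between arrays. These figures therefore check the procedure and do not give the recovery or the false calls of this comparison. The number of arrays limits the precision.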

Additional observations from a re-analysis of the deposited data

How the results depend on the processing

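Of the 17 called genes, 15 kept their direction and call in each of the up to 14 alternatives run (quantile normalization, median centring, 2 filters on low values, mean of probe sets, intensity trend, array weights, replicate block, each array left out), and Map7 and Stmn3 lost it without single arrays. With the replicate number as a block 7 tubulins were called in place of 4, and 7000 of all genes in place of 6296, with 6279 called in both; besides the tubulins, Lgi1 and Stmn2, the block changed no call of a gene named here. Among genes above the median level, 1 of 2 remaining intermediate filament genes was called in place of 3 of 12, since that filter keeps 21 of the 38 genes. Of the 21 uncalled genes, 5 were called in at least 1 alternative and 10 turned sign near 0. Nefh read −0.0119 after quantile normalization and −0.0192 with centred arrays, Ina −0.0193, −0.0109 and, as a mean of probe sets, −0.0205, and Krt18 −0.0216 with centred arrays. With each array left out in turn the differences ranged from −0.0087 to 0.11 for Mapt, −0.0949 to 0.0198 for Stmn4, −0.038 to 0.047 for Nefm, −0.0232 to 0.0690 for Nefh, −0.037 to 0.15 for Ina, −0.0787 to 0.0427 for Prph, −0.0563 to 0.0120 for Vim, −0.12 to 0.013 for Gfap, −0.19 to 0.022 for Krt8 and −0.0057 to 0.039 for Krt18. Of the 57 other genes named, 53 kept direction and call throughout and none turned sign, though as a mean of probe sets Mid1ip1 read −0.72 and Mapk10 −0.27. The background level was 5.67 with olfactory receptors alone. Signal near this level limits how large a difference can be measured.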

Other observations

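Markers of cell types not described with the cytoskeleton genes gave these values, with 31.6% of all genes called. Of 6 astrocyte markers 33.3% were called: the water channel Aqp4 was lower (−2.10, from 7.46 to 5.36) and the glutamate transporter Slc1a2 higher (+0.49, with both means under the background level). Of 6 measured oligodendrocyte lineage markers, Mbp was lower (−0.87) and Cspg4 higher (+0.82), and Olig1, Olig2, Sox10 and Mog lay under the background level in both genotypes. Among 6 endothelial markers, Erg (+4.60, from 5.37 to 9.97) and Tek (+3.14, from 5.07 to 8.21) were higher and Kdr lower (−0.44), while Pecam1, Cdh5 and Cldn5 lay under the background level with Kdr. Without wild-type replicate 1 the difference of Kdr was −0.28, and its call was lost without knock-out replicate 1 (limma adjusted p = 0.057) or 3 (0.053). None of 5 microglia and leukocyte markers was called by limma, none had an unadjusted p under 0.05, and all 5 lay under the background level.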
